A study of Mus musculus with 48 samples.

Results

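The combined effect of α-syn preformed fibrils (PFFs) and chronic hypoxia was examined as the difference between mice injected with PFFs that breathed 11% O2 and mice injected with α-syn monomer that breathed 21% O2, the baseline of the study. Mice were chosen by their labelled injection and oxygen level, and those kept by the authors after outlier removal were used, 10 PFF mice at 11% O2 and 11 baseline mice among the 42 kept of 48 sequenced. All were C57BL/6J males with no transgene, injected on 1 side into the striatum under isoflurane, and the whole substantia nigra (SN) was collected from the 21 mice compared 90 or 91 days later at an age of 30.1 or 30.3 weeks. The other groups, PFF at 21% O2 (12 mice) and monomer at 11% O2 (9 mice, 1 of them harvested at 98 days and 31.3 weeks), served to separate the components. The treatment protocol has mice breathing the labelled gas after the injection until harvest, whereas the design text deposited with the data describes 6 weeks of 21% O2 before 6 weeks of 11% O2. These texts therefore differ on the timing of hypoxia. In the paper, the groups of the delayed design, with 21% O2 for the first 6 weeks, included no monomer mice at 11% O2. These data do hold such a group.

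PFFs seed the aggregation of endogenous α-syn, which spreads from the injected striatum to the dopaminergic (DA) neurons that project to it. At low oxygen the prolyl hydroxylases that mark hypoxia-inducible factor (HIF) for degradation slow down, and HIF then raises transcripts for angiogenesis, glycolysis and iron uptake. Heat shock and endoplasmic reticulum (ER) chaperones, which fold proteins, are controlled by other pathways, heat shock factor 1 and the unfolded protein response.

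Libraries of the 21 mice compared held 12902996 to 17120921 counts on genes (median 14780084) before batch correction. Batches follow the harvest dates: batch 1 held 3 PFF mice at 11% O2 and 4 baseline mice, batch 2 held 3 and 7, and batch 3 held 4 PFF mice at 11% O2 and no baseline mouse, so the comparison of those 4 mice with the baseline rests on the authors' correction. Markers of the tissue were present. *Th*, the rate-limiting enzyme of dopamine synthesis, had 252 to 1027 (median 704) TPM (transcripts scaled to gene length and library total) in PFF mice at 11% O2 and 131 to 991 (median 656) in the baseline, and its log2 difference was 0.14 ± 0.33 (SE, adjusted p = 0.87). The serotonin transporter *Slc6a4* did not exceed 0.167 TPM in any of the 21 mice, while the choroid plexus gene *Ttr* ranged from 0.208 to 66.9 TPM across both groups. Another serotonin neuron gene, *Tph2*, had 0.575 to 2.37 TPM in PFF mice at 11% O2 and 0.772 to 2.04 TPM in the baseline. The hypothalamic gene *Pmch* had 0.317 to 11.4 and 0.658 to 17.2 TPM, so RNA of neighbouring tissue was present in both groups. In tissue RNA, fewer cells of a type and less RNA per cell cannot be told apart.

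Relative to the baseline, PFF mice at 11% O2 had higher transcripts for angiogenic signals and pericytes, and lower transcripts for heat shock and ER chaperones. Single genes of lactate metabolism (*Ldha*, *Slc16a3*) and iron transport (*Tfrc*, *Slc40a1*) were higher as well, while most members of their lists were not called. The lower chaperone transcripts were not particular to this group. The heat shock and ER chaperone medians were -0.17 and -0.24 in PFF mice at 21% O2 and -0.24 and -0.29 in monomer mice at 11% O2. Higher angiogenic and pericyte transcripts were shared with monomer mice at 11% O2, where the list medians were 0.46 and 0.52. In PFF mice at 21% O2 those medians were -0.07 and 0.06. A gene was called where its adjusted p was under 0.05 and its log2 fold change lay outside -0.25 to 0.25. Of 14839 genes tested, 555 (3.74%) were called, 346 (2.33%) higher and 209 (1.41%) lower, and the median log2 fold change of all genes was -0.0030. The TPM values of the groups did not overlap for 40 of the 555 called genes, compared with 45 of all genes tested (0.303%). The named genes below include those with the smallest p in each direction that had the same sign within batches 1 and 2. Most of the others are called members of gene lists, and these lists were chosen with earlier results of these data known.

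**Figure D1:**
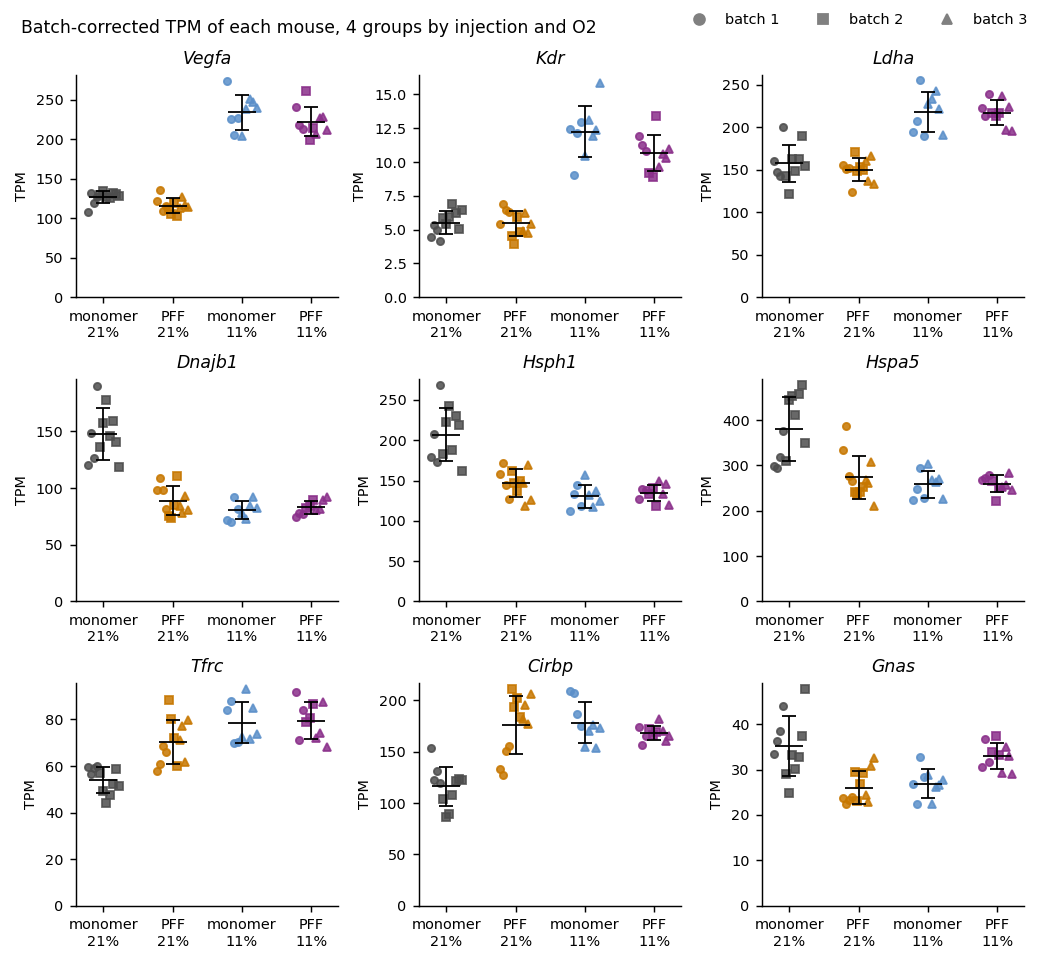
Batch-corrected TPM of 9 genes (vertical axes from 0) in each mouse of the 4 groups; symbols mark the harvest batch and bars the mean ± SD. *Vegfa*, *Kdr* and *Ldha* were high in both groups at 11% O2, *Dnajb1*, *Hsph1* and *Hspa5* were high in the baseline, *Tfrc* and *Cirbp* were low in the baseline, and *Gnas* in PFF mice at 11% O2 had the median 33.1 beside 33.5 TPM in the baseline.

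Among angiogenic signals and receptors, the HIF target *Vegfa* (ENSMUSG00000023951.17, chromosome 17 from 46016993 to 46032369), the main growth factor of blood vessels, ranged from 199.7 to 262 (median 216.01) TPM in PFF mice at 11% O2 and from 108 to 135 (median 129) TPM in the baseline, without overlap. On the log2 scale it rose by 0.83 ± 0.05 (SE, adjusted p = 1.66e-16), the smallest p of all genes. Its receptor *Kdr*, found on endothelial cells, ranged from 8.91 to 13.4 (median 10.7) and 4.17 to 6.88 (median 5.4) TPM and rose by 0.97 ± 0.09 (SE, adjusted p = 6.23e-10). All 10 mice lay above all 11 baseline mice for both genes. The chemokine *Cxcl12* had 26.2 to 40.5 (median 31.8) TPM against 11.9 to 18.4 (median 15.1) TPM in the baseline, again without overlap, and a change of 1.16 ± 0.12 (SE, adjusted p = 2.87e-09). The vasodilator peptide *Adm* rose by 0.88 ± 0.16 (SE, adjusted p = 3.64e-04) and had 4.97 to 14.5 (median 7.38) TPM against 2.215 to 7.00 (median 4.34) TPM in the baseline, with 7 of 10 mice above every baseline mouse. Of 11 tested members of this list, 6 were called higher and 0 lower (median log2 fold change 0.36), *Apln* (0.29) and *Nos3* (0.36) being the others. In monomer mice at 11% O2, 8 of the 11 were called against the same baseline (median 0.46). In PFF mice at 21% O2, where 0 of the 11 were called, *Vegfa* differed from the baseline by -0.11, *Kdr* by -0.0017 and *Cxcl12* by 0.24.

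*Ldha*, which makes lactate from pyruvate, is shown with its promoter because that sequence carries several matches to the HIF-binding core. Of its windows the one with the most matches was taken, and the other (chr7:46846832-46847131) held 0 of ACGTG and 2 of GCGTG. From RefSeq (build GRCm38.p6, chr7:46845554-46845853, plus strand, 250 bases before to 50 after the start), with ACGTG or GCGTG on either strand in capitals:
*Ldha* promoter: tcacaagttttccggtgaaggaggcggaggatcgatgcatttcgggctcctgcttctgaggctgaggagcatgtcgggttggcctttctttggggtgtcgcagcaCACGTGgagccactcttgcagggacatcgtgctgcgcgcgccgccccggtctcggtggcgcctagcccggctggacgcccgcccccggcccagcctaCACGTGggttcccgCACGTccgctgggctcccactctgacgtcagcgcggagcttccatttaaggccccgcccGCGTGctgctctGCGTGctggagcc
*Ldha* reached 195.1 to 239 (median 216.8) TPM compared with 122 to 199.8 (median 154) TPM in the baseline, and rose by 0.49 ± 0.06 (SE, adjusted p = 5.14e-07). The ranges overlapped, with 8 of 10 mice above every baseline mouse. *Slc16a3*, the lactate exporter MCT4, had 8.32 to 14.8 (median 10.2) and 2.87 to 8.97 (median 6.51) TPM and a change of 0.78 ± 0.17 (SE, adjusted p = 0.002). Both genes belong to a list of glycolysis and lactate genes, of which 4 of 24 were called higher and 0 lower. The other called members were the phosphofructokinase *Pfkl* (0.32) and *Pdk1* (0.30), a kinase that holds pyruvate back from mitochondria. The list median was 0.10 and the remaining 20 members were not called. In monomer mice at 11% O2, 5 of the 24 were called (median 0.12).

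Among other HIF targets and oxygen-sensing genes, 2 of 20 were called higher and 3 lower, with a median of 0.03. *Ankrd37* rose by 0.64 ± 0.12 (SE, adjusted p = 7.23e-04) and *Ndufa4l2*, a HIF-induced subunit of the respiratory chain, by 0.51 ± 0.13 (SE, adjusted p = 0.013), the latter not called without the batch 3 mice. The collagen prolyl hydroxylases *P4ha1* (-0.44) and *P4ha2* (-0.44) and the stress gene *Ddit4* (-0.48), often listed as HIF targets, fell. These 3 genes were also called lower in PFF mice at 21% O2, where their log2 fold changes were -0.69, -0.44 and -0.42. Outside the lists, *Prss35*, of the serine protease family, ranged from 13.3 to 19.6 (median 16.2) TPM and from 8.4 to 12.0 (median 9.15) TPM in the baseline, and rose by 0.80 ± 0.09 (SE, adjusted p = 5.28e-08). The calcium-binding protein *Casq2* rose by 0.79 ± 0.11 (SE, adjusted p = 2.17e-06), the actin-bundling villin *Vil1* by 1.24 ± 0.17 (SE, adjusted p = 4.51e-06) and the taurine transporter *Slc6a6* by 0.32 ± 0.04 (SE, adjusted p = 3.47e-06). *Vil1* was low in level, with 1.00 to 2.03 TPM in PFF mice at 11% O2 and 0.43 to 0.94 TPM in the baseline. The groups did not overlap for any of these 4 genes.

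Iron genes were called in 2 of 16 cases, both higher. The transferrin receptor *Tfrc* (ENSMUSG00000022797.16, chromosome 16 from 32608920 to 32632794), which imports iron, had 68.3 to 91.6 (median 79.8) TPM in PFF mice at 11% O2 and 43.9 to 60.2 (median 56.4) TPM in the baseline. The groups did not overlap and the change was 0.57 ± 0.07 (SE, adjusted p = 2.64e-07). The iron exporter ferroportin, *Slc40a1*, had 5.09 to 9.37 (median 6.63) and 4.39 to 6.28 (median 5.41) TPM, overlapping, with 8 of 10 mice above every baseline mouse and a change of 0.38 ± 0.10 (SE, adjusted p = 0.014). Without the batch 3 mice its change was 0.37 and it was not called. Against the same baseline, *Tfrc* differed by 0.40 in PFF mice at 21% O2 and by 0.54 in monomer mice at 11% O2, both called. The median over the 16 iron genes was -0.0012, near that of all genes.

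Transcripts of the vessel wall were higher. All 9 pericyte genes had a positive log2 fold change (median 0.47, range 0.15 to 0.56) and 6 were called. *Abcc9* and *Kcnj8*, subunits of a potassium channel of pericytes, rose by 0.47 ± 0.07 (SE, adjusted p = 7.89e-06) and 0.40 ± 0.08 (SE, adjusted p = 0.0014). *Abcc9* ranged from 8.04 to 10.4 (median 9.29) TPM and from 5.52 to 7.93 (median 6.6) TPM in the baseline, without overlap. *Higd1b* (0.49) and *Rgs5* (0.56), a regulator of G protein signalling, rose as well. Of 14 endothelial genes, 13 were positive (median 0.33) and 4 were called higher, among them the tight-junction gene *Cldn5* (0.57 ± 0.11 SE, adjusted p = 3.76e-04) and *Emcn* (0.51 ± 0.10 SE, adjusted p = 0.0013). The basement membrane gene *Nid2* rose by 0.60 ± 0.15 (SE, adjusted p = 0.011), 1 of 14 called in its list, and was not called without the batch 3 mice. Summed over the list, endothelial genes reached 465 to 625 TPM in PFF mice at 11% O2 and 355 to 485 TPM in the baseline. Without replicate 8 of the PFF mice at 11% O2, 2 endothelial genes were called and the same number of pericyte genes, 6. The other endothelial calls, *Ly6c1* (0.39) and *Slc16a4* (0.30), were lost when any 1 of 15 and 11 of the 21 mice was left out, and with batch as a covariate, so *Cldn5* and *Emcn* are the calls that did not rest on single mice. In monomer mice at 11% O2, 10 of the 14 endothelial genes (median 0.50) and 6 of the 9 pericyte genes (median 0.52) were called. In PFF mice at 21% O2, 1 and 0 were called.

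Haemoglobin transcripts were higher, but their calls rested on 1 mouse. *Hba-a1* had 353 to 1598 (median 571) TPM in PFF mice at 11% O2 and 166.6 to 408 (median 342) TPM in the baseline, with 9 of 10 mice above every baseline mouse. It changed by 1.07 ± 0.27 (SE, adjusted p = 0.011). All 5 tested red cell genes were called higher (range 1.00 to 1.25), *Hba-a2*, *Hbb-bs*, *Hbb-bt* and *Alas2*, the first enzyme of haem synthesis in red cells, being the others. Replicate 8 held 1598 TPM of *Hba-a1*, and without it 0 of the 5 were called and *Hba-a1* changed by 0.81. In monomer mice at 11% O2, all 5 were called against the same baseline (median 1.32), and in PFF mice at 21% O2 0 were called (median 0.30). Reads of *Hba-a1* and *Hba-a2*, or of *Hbb-bs* and *Hbb-bt*, may have been split unevenly, since each pair is nearly identical. Blood left in the dissected tissue was not measured, so its part in the vessel and red cell values was not tested.

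Heat shock genes were lower in PFF mice at 11% O2. *Hsph1*, which encodes HSP110, is shown with its promoter because, unlike those of *Dnajb1*, *Hspa1a* and *Hspa1b*, it has a heat shock element. This element, the binding sequence of heat shock factor 1, lies within the window. From RefSeq (GRCm38.p6, chr5:149636266-149636565, minus strand), with the match on either strand in capitals (GAA, TTC and GAA, each parted by 2 bases of any kind):
*Hsph1* promoter: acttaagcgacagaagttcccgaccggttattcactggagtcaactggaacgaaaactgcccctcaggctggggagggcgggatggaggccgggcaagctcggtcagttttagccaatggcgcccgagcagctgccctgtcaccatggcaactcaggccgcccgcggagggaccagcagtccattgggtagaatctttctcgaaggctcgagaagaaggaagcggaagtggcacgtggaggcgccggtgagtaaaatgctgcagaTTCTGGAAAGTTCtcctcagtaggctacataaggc
*Hsph1* had 119 to 149 (median 136) TPM in PFF mice at 11% O2 and 162.2 to 268 (median 207.9) TPM in the baseline, without overlap, and its log2 change amounted to -0.60 ± 0.07 (SE, adjusted p = 1.33e-07). *Dnajb1*, an HSP40 that hands substrates to HSP70, had 74.4 to 92.6 (median 82.2) and 118 to 190.5 (median 146) TPM and changed by -0.81 ± 0.07 (SE, adjusted p = 2.34e-10). The groups of *Dnajb1* did not overlap either, and its p was the smallest among lower genes. The inducible HSP70 genes *Hspa1a* and *Hspa1b*, adjacent and nearly identical copies between which reads could be divided arbitrarily, changed by -2.03 ± 0.24 (SE, adjusted p = 1.72e-07) and -3.22 ± 0.40 (SE, adjusted p = 3.27e-07). *Hspa1b* ranged from 6.06 to 18.6 (median 9.98) TPM in PFF mice at 11% O2 and from 16.4 to 266 (median 85.2) TPM in the baseline, with 8 of 10 mice below every baseline mouse.

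All 23 heat shock genes had a negative log2 fold change (median -0.22, range -3.22 to -0.05) and 8 were called lower. Apart from those above, the small heat shock protein *Hspb1* (-1.16), *Chordc1* (-0.38), *Dnajb4* (-0.26) and the lens and glial chaperone *Cryab* (-0.35) were called. Lower genes outside this list included other chaperone genes. The HSP40 gene *Dnaja4* (-0.44 ± 0.05 SE, adjusted p = 2.27e-07) and the HSP90 co-chaperone *Ahsa2* (-0.63 ± 0.08 SE, adjusted p = 3.23e-07) were among the 10 lower genes with the smallest p. So were genes that are not chaperones: *Ccdc117* (-0.68 ± 0.07 SE, adjusted p = 4.48e-09), the death effector gene *Dedd2* (-0.55), the inositol transporter *Slc5a3* (-0.69) and the chromatin regulator *Arid5b* (-0.61). For all 6 of these genes every PFF mouse at 11% O2 lay below every baseline mouse. Against the same baseline, *Dnajb1* differed by -0.71 in PFF mice at 21% O2 and by -0.87 in monomer mice at 11% O2, and *Hsph1* by -0.48 and -0.66, all 4 of them called.

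ER chaperones were also lower, 9 of 16 called and 15 with a negative sign (median -0.28). Against the same baseline, 8 of the 16 were called in PFF mice at 21% O2 (median -0.24) and 9 in monomer mice at 11% O2 (median -0.29). *Hspa5* encodes BiP, the HSP70 of the ER, and is shown for the ER stress element in its promoter. From RefSeq (GRCm38.p6, chr2:34771840-34772139, plus strand), with the element in capitals (CCAAT and CCACG parted by 9 bases of any kind):
*Hspa5* promoter: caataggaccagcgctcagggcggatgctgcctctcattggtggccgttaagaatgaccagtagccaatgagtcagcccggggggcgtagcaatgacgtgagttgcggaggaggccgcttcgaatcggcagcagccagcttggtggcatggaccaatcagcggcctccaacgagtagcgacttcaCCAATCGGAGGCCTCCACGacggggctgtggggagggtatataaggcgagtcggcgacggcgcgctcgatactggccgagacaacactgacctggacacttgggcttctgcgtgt
*Hspa5* had 221.5 to 284 (median 261) TPM in PFF mice at 11% O2 and 295 to 478 (median 376) TPM in the baseline, without overlap, and it changed by -0.53 ± 0.09 (SE, adjusted p = 6.85e-05). The transcription factor *Xbp1* (-0.42 ± 0.07 SE, adjusted p = 1.58e-04), the degradation factor *Herpud1* (-0.30 ± 0.05 SE, adjusted p = 1.58e-04) and *Creld2* (-0.67 ± 0.12 SE, adjusted p = 1.82e-04) fell as well. Within batches 1 and 2 the list median was -0.09 and -0.40. Within batch 1 *Hspa5* had 241, 245 and 249 TPM before correction in the PFF mice at 11% O2 and 263, 258, 281 and 330.3 TPM in the baseline. Of 16 genes of the integrated stress response, which ATF4 drives, 0 were called and the median was -0.02.

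Further calls fell on genes that respond quickly to hormones, neuronal activity or time of day. Of 12 glucocorticoid-response and metallothionein genes, 6 were called lower and 1 higher, *Mt2* (0.48). Against the same baseline, 5 of the 12 were called in PFF mice at 21% O2 and 5 in monomer mice at 11% O2. *Sgk1*, a kinase induced by glucocorticoids, had 30.7 to 78.7 (median 41.7) TPM in PFF mice at 11% O2 and 38.4 to 193.7 (median 119.8) TPM in the baseline and changed by -1.31 ± 0.28 (SE, adjusted p = 0.0021). *Tsc22d3* (-0.41 ± 0.07 SE, adjusted p = 9.15e-05), *Errfi1* (-0.38 ± 0.06 SE, adjusted p = 3.45e-05) and *Pdk4* (-0.39 ± 0.11 SE, adjusted p = 0.02) fell too. Without batch 3 mice, 3 of this list were lower. The immediate early genes *Nr4a3* (-0.80), *Egr3* (-0.82) and *Egr4* (-0.71) were the 3 called of 14, a list whose median was -0.50 in batch 1 and -0.03 in batch 2, and with all 48 mice *Egr3* changed by -0.08. The clock genes *Per1* (-0.51), *Per2* (-0.42) and *Nfil3* (-0.32) fell among 19 tested. In PFF mice at 21% O2, 4 of the 14 immediate early genes and 6 of the 19 clock genes were called. In monomer mice at 11% O2, 5 and 4 were called. *Nfil3* was not called without baseline replicate 4 or 7 or PFF replicate 8, nor with batch as a covariate. Without the batch 3 mice *Per1*, *Nfil3*, *Pdk4*, *Egr3* and *Egr4* were not called. In the opposite direction, *Cirbp*, an RNA-binding protein induced by mild cold, had 156.9 to 182.3 (median 167.7) TPM in PFF mice at 11% O2, above all baseline mice at 86.8 to 154 (median 121) TPM, and rose by 0.55 ± 0.08 (SE, adjusted p = 2.17e-05). The other 5 cold-inducible and CLK kinase genes were not called.

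**Figure D2:**
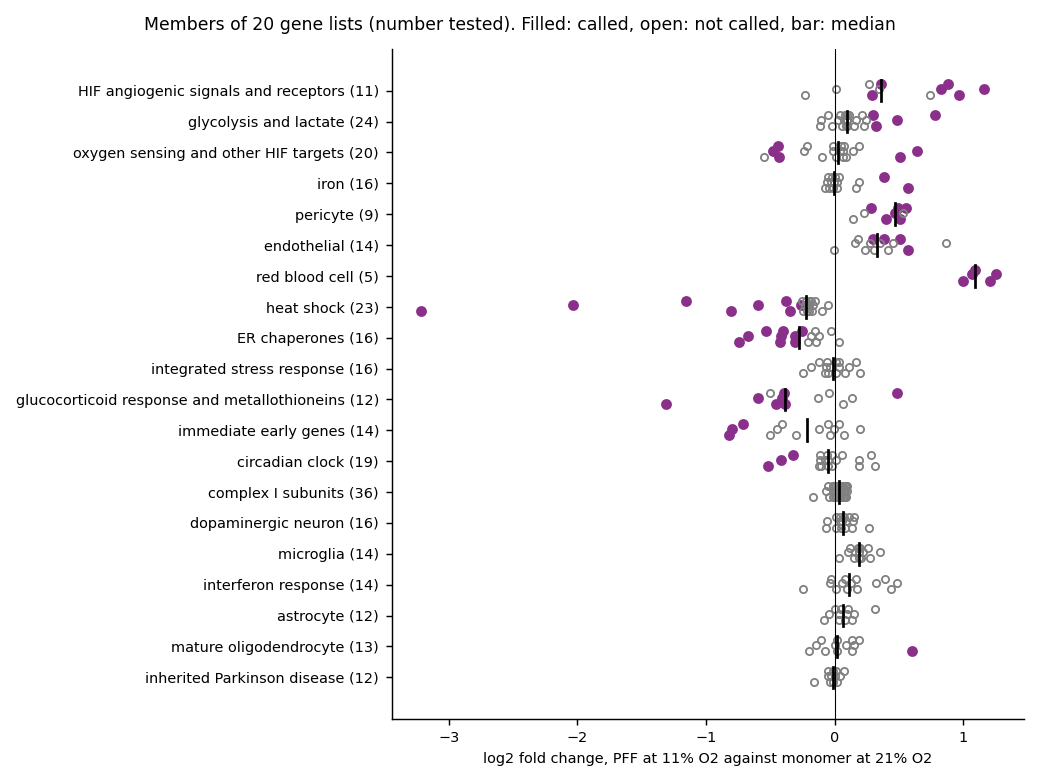
Log2 fold changes of PFF mice at 11% O2 against the baseline for the members of 20 gene lists, filled where called and open where not, with bars at list medians. All heat shock genes lay below 0 and all pericyte and red cell genes above 0. Of 16 dopaminergic neuron genes 14 lay above 0, with a median of 0.07 and none called.

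Few neuronal and glial identity genes were called. At a share of 3.74% over all genes, a list of this size would hold about 1 called gene or none, so a count of 0 says little about a list. None of 16 DA neuron genes were called (14 positive, range -0.07 to 0.27), and none of 12 genes of inherited Parkinson disease (range -0.16 to 0.07) or 36 nuclear complex I subunits (range -0.17 to 0.10). The 13 genes of the mitochondrial genome all had positive signs with a median of 0.11, and 0 were called. All 14 microglia genes had positive signs (median 0.19), and 0 were called. The microglial *Aif1*, which encodes IBA1, had 21.8 to 44.9 (median 25.7) TPM in PFF mice at 11% O2 and 16.2 to 28.3 (median 23.4) TPM in the baseline, a change of 0.28 ± 0.13 (SE, adjusted p = 0.239) that did not pass, with an interval of 0.01 to 0.55. Of 11 disease-associated microglia genes, only the chemokine *Ccl6* (0.69 ± 0.20 SE, adjusted p = 0.024) was called. The interferon, astrocyte, choroid plexus, leptomeningeal, NRF2, cholesterol, arterial smooth muscle, neuron transmitter and neighbouring region lists had 0 called genes each. *Socs3* (0.56 ± 0.16 SE, adjusted p = 0.027) and *Serpina3n* (0.27 ± 0.08 SE, adjusted p = 0.047) of the interleukin-6 response were called higher. *Opalin* rose by 0.60 ± 0.11 (SE, adjusted p = 3.10e-04) among mature oligodendrocyte genes and *Bmp4* by 0.84 ± 0.23 (SE, adjusted p = 0.023) among precursor genes. These last calls were fragile. *Serpina3n* was lost when any 1 of 14 of the 21 mice was left out, *Socs3* without PFF replicate 6 or 8 or baseline replicate 5, *Ccl6* without PFF replicate 8 or baseline replicate 9, and *Bmp4* without PFF replicate 8. *Socs3*, *Ccl6* and *Bmp4* were also not called without the batch 3 mice, and *Serpina3n* not with batch as a covariate.

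Genes were next sorted by whether they stayed off the baseline or lay near it when PFF and 11% O2 were combined. In PFF mice at 21% O2, 549 genes (3.7%) were called against the baseline. Of these, 262 (47.7%) stayed off the baseline, called in the same direction in PFF mice at 11% O2, 146 higher and 116 lower. Without the batch 3 mice, whose batch has no baseline mouse, 96 of 251 did. A further 28 (5.10%) lay near the baseline, with a 95% interval within -0.25 to 0.25, where 61.2% of all genes tested lay. The remaining 258 were neither, apart from 1 gene called in the opposite direction. The median change of those 258 in the direction of PFF at 21% O2 was 0.24, and 245 of them had the same sign in both comparisons. These comparisons share the 11 baseline mice, so a baseline mean that lies high or low moves both. Among the 262, chosen because both PFF groups lay off the baseline in the same direction, 0 were called between PFF mice at 11% and at 21% O2. The 5 with the smallest p in PFF mice at 21% O2 were *Dnajb1*, *Dedd2*, *Ccdc117*, *Arid5b* and *Ahsa2*, whose changes at 21% O2 of -0.71, -0.46, -0.70, -0.60 and -0.62 stood beside -0.81, -0.55, -0.68, -0.61 and -0.63 at 11% O2.

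Of the 28 genes near the baseline, 7 had been called higher and 21 lower in PFF mice at 21% O2, and their median change there was 0.28 in size, close to the threshold. *Gnas*, the stimulatory G protein α-subunit, had 29.0 to 37.4 (median 33.1) TPM in PFF mice at 11% O2, 24.9 to 47.8 (median 33.5) TPM in the baseline and 22.5 to 32.5 (median 24.2) TPM in PFF mice at 21% O2. It differed from the baseline by -0.42 ± 0.08 (SE, adjusted p = 7.41e-04) at 21% O2 and by -0.08 ± 0.08 (SE, adjusted p = 0.67) at 11% O2. *Sbsn*, suprabasin, had 8.53 to 10.5 (median 9.37), 7.9 to 11.2 (median 9.43) and 8.33 to 14.2 (median 12.7) TPM in the same groups, with changes of 0.41 at 21% O2 and 0.03 at 11% O2 (interval -0.13 to 0.20). *Haus1*, a subunit of the augmin complex of the spindle, moved from 0.33 to 0.08, *Dcun1d3*, which acts on cullin ligases, from -0.28 to -0.12, and *Fgd1*, an activator of CDC42, from -0.27 to -0.11. The direct comparison of PFF mice at 11% and 21% O2 called 5 of the 28 back toward the baseline: *Gnas*, *Sbsn*, *Cited2*, *Pnrc1* and *Hnrnpab*. Over all 549 PFF genes it called 19 in the direction opposite to PFF at 21% O2, 13 of them among the 258 that were neither off nor near and the other being *Sfrp5*. The PFF mice at 21% O2 by which the 549 genes were chosen also enter this comparison. A high or low mean of theirs moves both, so these counts are descriptions and not a separate test of a return. *Cited2*, *Pnrc1* and *Hnrnpab*, named after their values were seen, differed between PFF mice at 11% and 21% O2 by 0.30, 0.29 and 0.29. The gene called in the opposite direction was *Sfrp5*, a secreted Wnt antagonist, with 0.31 at 21% O2, -0.42 at 11% O2 and -0.40 in monomer mice at 11% O2.

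In monomer mice at 11% O2, 1073 genes (7.23%) were called against the baseline, and 465 of them (43.3%) stayed off it in PFF mice at 11% O2, 297 higher and 168 lower. Their median change was 0.47 in size in monomer mice and 0.42 in PFF mice in the same direction. *Vegfa* (0.89 and 0.83), *Kdr* (1.15 and 0.97), *Cxcl12* (1.36 and 1.16), *Dnajb1* (-0.87 and -0.81) and *Ccdc117* (-0.81 and -0.68) had the smallest p. Another 33 (3.08%) lay near the baseline in PFF mice, and 575 were neither. The 5 near-baseline genes with the smallest p in monomer mice were *Gnas*, the ER contact protein *Vapa* (-0.30 in monomer and -0.03 in PFF mice), *Akirin2* (-0.28 and -0.10), the corepressor *Rcor1* (-0.25 and -0.14) and *Rab5if* (-0.29 and -0.01). *Vapa* ranged from 114 to 129 (median 121) TPM in PFF mice at 11% O2, 109.6 to 147 (median 125) TPM in the baseline and 86.4 to 116 (median 101) TPM in monomer mice at 11% O2. PFF and monomer mice at 11% O2 differed for 0 of 14839 genes (0.0%) in edgeR's quasi-likelihood test, with 581 at an unadjusted p under 0.05, so no near-baseline gene was shown to differ between them. Without batch 3 mice the near-baseline set held 194 genes and the off-baseline set 222.

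**Figure D3:**
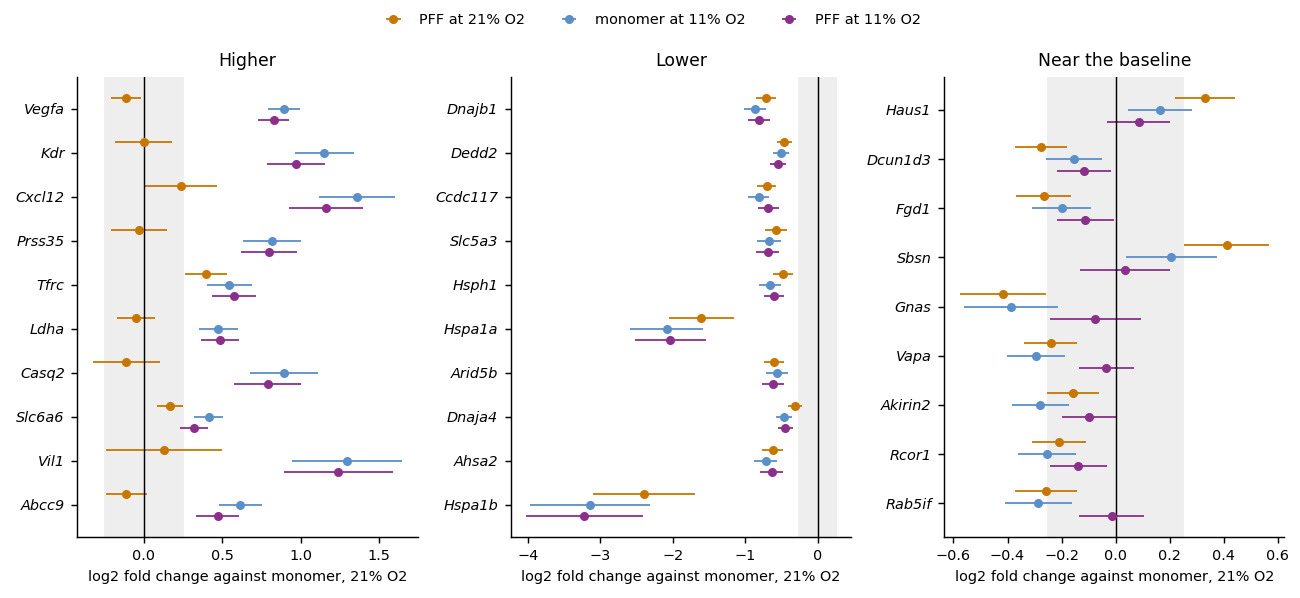
Log2 fold changes against the baseline with 95% intervals in PFF mice at 21% O2, monomer mice at 11% O2 and PFF mice at 11% O2, for the 10 higher and 10 lower genes with the smallest p and for 9 genes near the baseline; grey bands span -0.25 to 0.25. Most higher genes lay within the band in PFF mice at 21% O2, *Tfrc* (0.40) being outside it, while all 10 lower genes lay below the band in all 3 groups by their point estimates.

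Counted from the 555 genes of the combined response, 240 (43.2%) were called against the baseline in both other groups, 225 (40.5%) in monomer mice at 11% O2 and not in PFF mice at 21% O2, 23 (4.14%) in PFF mice at 21% O2 and not in monomer mice at 11% O2, and 67 (12.1%) in neither. Of the 240, 131 were higher in all 3 groups and 108 lower, leaving *Sfrp5*. The higher genes among the 225 were 29.9% of all called genes and the lower genes 10.6%. Of the 67, 34 were higher and 33 lower. The transcription factor *Zbtb5* (-0.31 ± 0.06 SE, adjusted p = 8.47e-04) and *Cryab* (-0.35 ± 0.07 SE, adjusted p = 0.0021) were lower among these 67, with changes of -0.22 and -0.24 in PFF mice at 21% O2 that did not pass. *Fgfbp3*, a carrier of fibroblast growth factors, had 16.6 to 26.4 (median 21.3) and 11.9 to 20.5 (median 16.1) TPM and rose by 0.46 ± 0.10 (SE, adjusted p = 0.002), a call lost without the batch 3 mice. *Vmn1r4*, a vomeronasal receptor, was called higher with no mouse above 1.29 TPM. *Prg4*, lubricin, was called at 2.10 ± 0.46 (SE, adjusted p = 0.0026), but replicate 8 held 23.1 TPM and no other PFF mouse at 11% O2 over 2.72 TPM. Without that mouse its change was 0.96 and it was not called.

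The direct comparison of PFF mice at 11% and 21% O2 called 86 genes (0.58%), 65 higher and 21 lower at 11% O2. *Vegfa* (0.94 ± 0.05 SE, adjusted p = 5.41e-19), *Kdr* (0.97 ± 0.09 SE, adjusted p = 4.04e-10), *Prss35* (0.83 ± 0.09 SE, adjusted p = 2.22e-08) and *Ldha* (0.54 ± 0.06 SE, adjusted p = 7.76e-08) were among the higher. *Tfrc* differed by 0.18 ± 0.07 (SE, adjusted p = 0.306) and *Dnajb1* by -0.10 ± 0.07 (SE, adjusted p = 0.661), neither past the threshold, with intervals of 0.04 to 0.32 and -0.24 to 0.05. Of the 465 hypoxia genes that stayed off the baseline, 41 were called in this comparison too, in the same direction. The 465 were chosen partly by the same PFF mice at 11% O2, so that count is a description.

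Each batch was then fitted alone on the counts before correction. Batch 1, with 3 against 4 mice, called 24 of 14768 genes (0.163%), 10 higher and 14 lower, and batch 2, with 3 against 7, called 157 of 14837 (1.06%), 77 higher and 80 lower. Of the 555 genes, 547 (98.6%) had the same sign as overall within both batches. Both batches contribute to that overall value. Between the batches, which share no mouse, 65.7% of all 14671 genes tested in both had the same sign, and all 24 genes called in batch 1 had that sign in batch 2, with a median of 0.55 there. Of the batch 2 calls, 156 could be followed in batch 1, where 152 (97.4%) kept their sign, with a median of 0.24. Across genes, which are not independent, Pearson's r of the batch 1 and batch 2 changes was 0.455. In a fit of the difference of the response between the batches, edgeR's quasi-likelihood test called 0 of 14793 genes, with 499 at an unadjusted p under 0.05. DESeq2 was not run for it.

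Called in the same direction in each batch alone were 12 genes: *Vegfa*, *Kdr*, *Cxcl12*, *Prss35*, *Tfrc*, *Slc6a6* and *Rgs5*, which were higher, and *Dnajb1*, *Dedd2*, *Ccdc117*, *Hspa1a* and *Hspa1b*, which were lower. In batch 1, *Vegfa* had 214.5, 202.7 and 198.9 TPM before correction in PFF mice at 11% O2 and 103, 119, 111 and 116 TPM in the baseline. In batch 2, the 3 PFF mice had 252, 189.5 and 204.1 TPM and the 7 baseline mice 120.4 to 128 TPM, so the log2 fold change was 0.89 and 0.83 in the 2 batches. *Hspa1b* had 6.66, 9.18 and 7.7 TPM in the PFF mice and 54.7, 163.99, 85.7 and 256 TPM in the baseline of batch 1, and 7.57, 11.4 and 7.88 TPM against 50.9 to 139 TPM in batch 2. Before correction the groups of *Hspa1b* therefore did not overlap in either batch. The overlap of the corrected values above came from batch 3. There PFF replicates 9 and 11 had 18.6 and 16.6 TPM, beside 16.4 TPM in baseline replicate 12. The change of *Dnajb1* was -0.95 and -0.76, that of *Tfrc* 0.51 and 0.72, and that of *Cirbp* 0.37 and 0.69 within batches 1 and 2.

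**Figure D4:**
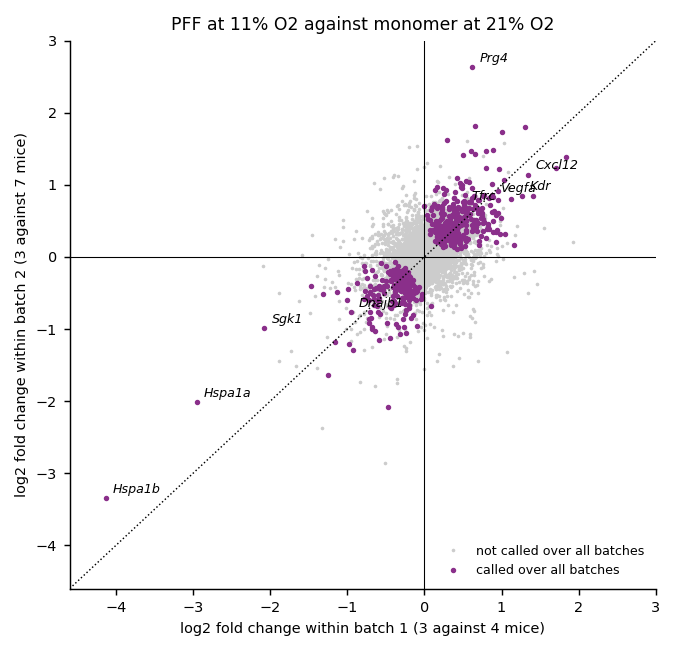
Log2 fold change of PFF mice at 11% O2 against the baseline within batch 2 (vertical axis) and within batch 1 (horizontal axis), 1 point per gene, with the 555 called genes coloured and the dotted line marking equal change. The called genes lie mostly in the quadrants of equal sign; *Hspa1b* is lowest in both batches (-4.13 and -3.35) and *Prg4* is higher in batch 2 (2.63) than in batch 1 (0.62).

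The counts within batches depended on single mice. Without replicate 8 of the PFF mice at 11% O2, batch 2 called 2 genes, without replicate 6 it called 69 and without replicate 7 it called 64. Leaving out baseline replicate 5, 7 or 9 gave 240, 74 and 87. In batch 1, 7, 8 and 7 genes were called without PFF replicates 1, 3 and 4. Genes called for 1 component in one batch were also followed in the other batch, which shares no mouse with it. Of 574 genes called for PFF at 21% O2 within batch 2 (580 of 14837, 3.91%), 82.1% had that sign for PFF at 11% O2 in batch 1, compared with 58.8% of all genes. Of the 297 genes called for monomer at 11% O2 within batch 1 (2.01%), 85.2% had that sign for PFF at 11% O2 in batch 2, compared with 61.4% of all genes.

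The authors left out 3 mice of these groups, PFF mice at 11% O2 replicates 2 (batch 1, 3134594 counts) and 5 (batch 2) and baseline replicate 10 (batch 2). Before correction, replicate 2 held 109 TPM of *Vegfa* and 3.1 TPM of *Kdr*, within the range of the batch 1 baseline, and 9740.0 TPM of *Hba-a1*, far above all other mice of both groups. Like its group it lay below the batch 1 baseline for *Dnajb1* (52.8 TPM) and *Hspa1b* (12.4 TPM). The other PFF mice at 11% O2 of batch 1 held 69.4 to 72.7 and 6.66 to 9.18 TPM of these. Replicate 2 also lay outside them for genes near the baseline, such as *Fgd1* (3.72 TPM, others 8.47 to 9.30) and *Akirin2* (109 TPM, others 60.3 to 74.7). Replicate 5 held 192.5 TPM of *Vegfa* and 69.1 TPM of *Dnajb1*, and 20.2 TPM of *Kdr*. In a fit of all 48 mice with a batch term, 700 genes were called, *Vegfa* changed by 0.77 (adjusted p = 3.51e-13) and *Dnajb1* by -0.84 (adjusted p = 7.94e-11).

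**Figure D5:**
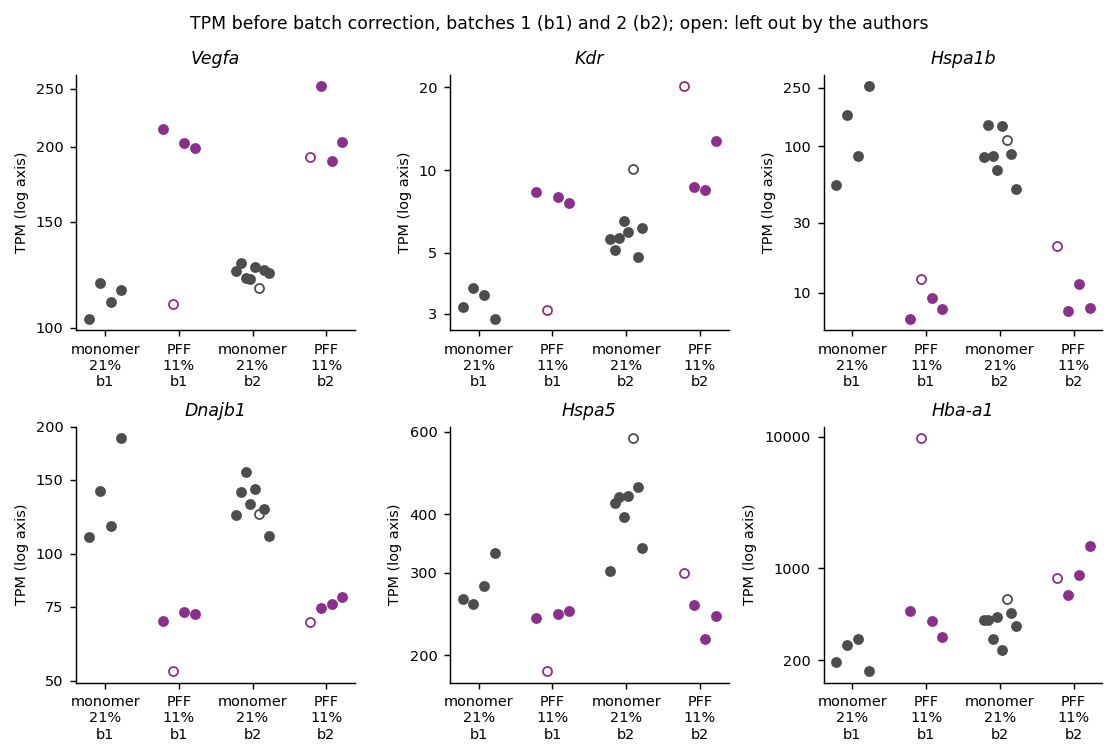
TPM before batch correction (log axes) of 6 genes in baseline mice and PFF mice at 11% O2 of batches 1 and 2, 1 point per mouse, open where the authors left the mouse out. For *Dnajb1* and *Hspa1b* all PFF mice lie below all baseline mice of their batch, and the open point of batch 1 holds 9740.0 TPM of *Hba-a1*.

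Promoters of 11666 tested genes were matched by symbol and searched for these sequences over 300 bases on both strands. The heat shock element was found in 2 promoters of lower genes (1.24% of those matched), those of *Hsph1* and *Chordc1*, in 0 of 274 of higher genes, and in 65 of all (0.557%). Promoters of the lower genes *Dnajb1*, *Dnaja4*, *Hspa1a* and *Hspa1b* held no match to it. The ER stress element was found in 3 of the lower genes (1.86%), *Hspa5*, *Pdia6* and *Creld2*, and in 21 of all (0.18%). The HIF core, ACGTG or GCGTG, which also matches many unrelated promoters, was found in 54.4% of promoters of higher genes and 65.4% of all. A match is a sequence only, and no binding was measured.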

How the data were processed

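Bulk RNA-seq of mouse SN was used. Per the labels and the submitters' processing notes, reads were aligned with STAR 2.7.5a and counted per gene with featureCounts 2.0.1, and Picard 2.21.9, GATK 4.1.5.0-9 and Scanpy 1.8.1 are also named there. The authors deposited raw counts of 48 mice and, after leaving out 6, counts of 42 mice corrected for batch with ComBat-seq. The authors also deposited TPM values before and after correction, which were used for levels per mouse. Corrected values depend on the correction, since the baseline had no mouse in batch 3.

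Corrected counts were fitted in R 4.3.3 with edgeR 4.0.16 (TMM, filterByExpr, quasi-likelihood test, 4 groups in 1 fit), with p-values adjusted by Benjamini-Hochberg over 14839 genes and calls at 0.05 and a log2 fold change outside -0.25 to 0.25. Within-batch fits used counts before correction. Intervals are 95%. DESeq2 1.42.0 and limma 3.58.1, other normalization, filters, mice and a replicate block served as alternatives. Scripts were tested on simulated data. Samples are separate mice. The study's methods describe matched mice (weight, age, delivery date and, where possible, cage), but the labels do not tie replicate numbers to those pairs.

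Named genes were the 10 higher and 10 lower with the smallest p and the same sign within batches, those called in both batches, the 5 with the smallest p in each class, called list members (at most 4 a list) and genes the study names. Members and lists were chosen with earlier results of these data known.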

Additional observations from a re-analysis of the deposited data

Results flagged for a closer look

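Among the 10 PFF mice at 11% O2, 1 mouse lay far from the others for 14 of the 78 genes named, where chance alone sets apart about 1 in 20 groups. The genes are not independent, since *Hba-a1*, *Hba-a2*, *Hbb-bs* and *Hbb-bt* were highest in the same mouse. The 14 can therefore not be set directly against that rate. Replicate 8 was the highest for *Prg4* (23.1 TPM, next mouse 2.72), *Bmp4* (13.8 TPM, next mouse 6.02), *Ccl6* (22.2 TPM, next mouse 12), *Aif1* (44.9 TPM, next mouse 30.3), *Hba-a1* (1598 TPM, next mouse 757), *Hba-a2* (1195 TPM, next mouse 634), *Hbb-bs* (1750.0 TPM, next mouse 881) and *Hbb-bt* (402 TPM, next mouse 155). Replicate 7 was the highest for *Dedd2* (19 TPM, next mouse 17.3), *Per2* (22.3 TPM, next mouse 18.8) and *Egr3* (2.73 TPM, next mouse 1.5), replicate 3 for *Akirin2* (83.1 TPM, next mouse 70.9), replicate 6 for *Adm* (14.5 TPM, next mouse 9.97) and replicate 9 for *Slc16a3* (14.8 TPM, next mouse 11.7).

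Genes outside the corrected table were fitted on counts before correction with batch as a covariate. Of 3499 tested, 156 (4.46%) were called between PFF mice at 11% O2 and the baseline, 104 higher and 52 lower. The smallest p in edgeR's quasi-likelihood test belonged to *Gm46658*, whose log2 difference was 1.59 ± 0.18 (SE, adjusted p = 6.64e-08), and *0610040B10Rik*, with 0.96 ± 0.13 (SE, adjusted p = 2.36e-06).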

How the results depend on the processing

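The count of 555 called genes became 290 without the batch 3 mice and 887 by adjusted p alone, and ranged from 438 to 598 when each mouse was left out. The 24 genes of batch 1 became 64 with DESeq2, 9 with only the 2 groups compared in the fit and 15 with the replicate block, and ranged from 7 to 28 over mice left out. The 157 of batch 2 became 300 with the mice the authors left out, 309 with DESeq2 and 100 with only the 2 groups, and ranged from 2 to 240 over mice left out. Without the batch 3 mice, the PFF genes off the baseline fell to 96 and those near it to 17, and the hypoxia genes off the baseline fell to 222 while those near it became 194. On counts before correction with batch as a covariate, 18 PFF genes (42 mice) or 16 (48 mice) and 13 or 20 hypoxia genes lay near the baseline. Leaving out each mouse, chosen after seeing the data, gave 20 to 30 PFF genes and 21 to 40 hypoxia genes near it and 379 to 504 hypoxia genes off it, 21 near it without baseline replicate 6 or PFF replicate 11. Genes near 0 turned sign: *Gnas* to 0.0054 and *Vapa* to 0.075 with 48 mice, *Rab5if* to 0.0059 and *Vapa* to 0.015 on counts before correction without a batch term, and *Vapa* to 0.0026 without batch 3. The cause was not tested.

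The labels do not say that equal replicate numbers mark matched mice. Of the 9 numbers both groups hold, 6 also share a batch, while numbers 9, 11 and 12 join batch 3 with batch 2 mice, so the block mixes batches. The correlation of their deviations was 0.034 to 0.457, 7 over 0.1, and 3 mice correlated best with their own number. With the replicate block 451 genes were called, and 147 in batch 2, and *Socs3*, *Serpina3n*, *Hba-a2* and *Hbb-bt* were not called.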
